A study of Mus musculus with 12 samples.

Results

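The DNA glycosylase gene Neil1 and 8 other genes of base excision repair, mismatch repair and lesion bypass (Neil2, Neil3, Ung, Ogg1, Nthl1, Msh6, Exo1 and Polh) were followed in mouse spleens. Their probe sets were those whose annotated symbol was exactly one of these names. They came to 15 of the 45037 probe sets tested and covered 8 of the 9 genes, because no probe set carried the symbol Neil2. Neil1 was chosen by its rise with immunization in the BALB/cByJ arrays, so those values are described here without a test. The other genes were picked for their function when earlier results of these arrays were known, so their p values are not independent support.

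Spleens of female mice from 2 BALB/c colonies, BALB/cJ and BALB/cByJ, were compared with 12 whole-genome oligonucleotide arrays, 1 per spleen and 3 per group. The immunized groups had received a single intraperitoneal injection of cartilage proteoglycan (PG, 100 µg of protein) emulsified with 2 mg of the adjuvant dimethyldioctadecyl-ammonium bromide (DDA), and the spleens were taken after 12 days. The naïve groups were untreated, so PG, adjuvant and injection cannot be told apart. No genetic modification is named for either colony, and the labels give no ages.

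Values are log2 signals from which the median of each probe set over the 12 arrays had been subtracted. A value of 0 is therefore the middle array, and a difference of 1 is a 2-fold difference. Levels cannot be compared between genes, and whether a gene or a spleen cell marker was above background could not be seen. In a piece of whole spleen, fewer cells of a type and less RNA per cell cannot be told apart.

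Some arrays held high values of genes of other tissues. The median of 9 pigment cell probe sets reached 3.27 in the first and 3.23 in the second naïve BALB/cJ replicate. It was 2.65 in the first immunized BALB/cJ array, 1.71 in the second immunized BALB/cByJ array and at most 0.47 elsewhere. The median of 9 pancreas acinar probe sets was 2.94 in naïve BALB/cByJ replicate 1 and at most 0.39 elsewhere.

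Base excision repair begins when a DNA glycosylase cuts a damaged or wrong base from the double helix, after which the abasic site is incised, filled and sealed. Mismatch repair recognises mispaired bases and removes a stretch of the new strand around them. In B cells of the germinal centre both pathways also process the uracils that a deaminase makes in antibody genes. This processing takes part in antibody gene mutation and in class switching. The gaps are partly copied by error-prone polymerases, which spreads mutations.

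Neil1, a glycosylase that removes oxidised pyrimidines, stood apart in the immunized BALB/cByJ spleens. Its single probe set, 1452871_at, read 0.85, 0.65 and 0.94 in the 3 immunized BALB/cByJ arrays. The naïve BALB/cByJ arrays read -0.09, -0.28 and -0.28. All 3 immunized arrays of this colony lay above every one of the other 9 arrays. In BALB/cJ the naïve arrays read 0.00, -0.03 and 0.00 and the immunized arrays -0.15, 0.13 and 0.03, so that these groups overlapped.

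The immunized BALB/cByJ arrays had a mean of 0.81 ± 0.15 (SD, n = 3) and the naïve ones of -0.21 ± 0.11 (SD, n = 3), a difference of 1.03, about 2-fold. The mean of immunized BALB/cJ was 0.00 ± 0.14 (SD, n = 3), 0.81 lower than that of immunized BALB/cByJ. That of naïve BALB/cJ was -0.01 ± 0.02 (SD, n = 3), 0.20 above naïve BALB/cByJ. The values that chose Neil1 enter each of these differences except the one within BALB/cJ. There the immunized mean was 0.01 above the naïve mean (95% confidence interval -0.20 to 0.22, adjusted p = 0.987 by limma).

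The immunized arrays came in an early and a late run of sample numbers (29 to 33 and 48 to 50), while all naïve arrays were numbered 10 to 15, so immunization and run cannot be told apart. The colony difference among immunized spleens was 0.90 in the early run (2 BALB/cByJ arrays and 1 BALB/cJ array) and 0.86 in the late run (1 and 2 arrays). Both values are built from the arrays that chose Neil1 and are a description, not a test of the run. When the 4 arrays rich in pigment cell transcripts were left out, the colony difference among immunized spleens was 0.82, and the response in BALB/cByJ was 1.11. The first of these was then no longer past the threshold used for all probe sets, and neither was past it with a trended and robust variance or with the compared groups alone.

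The sequence upstream of Neil1 is shown because it is the member that stood apart in the immunized BALB/cByJ arrays. The upstream sequences of Neil3, Ung, Msh6 and Polh are shown because these genes were called in naïve mice and had an entry in the table. Each is the 250 bases before the annotated RefSeq start in GRCm38.p6, 5′ to 3′ on the strand of the gene, with matches to the searched motifs in capitals. Neil1 lies at chr9:57148306-57148555 (minus strand), Neil3 at chr8:53639066-53639315 (minus strand), Ung at chr5:114130185-114130434 (plus strand), Msh6 at chr17:87974800-87975049 (plus strand) and Polh at chr17:46202642-46202891 (minus strand).
Neil1: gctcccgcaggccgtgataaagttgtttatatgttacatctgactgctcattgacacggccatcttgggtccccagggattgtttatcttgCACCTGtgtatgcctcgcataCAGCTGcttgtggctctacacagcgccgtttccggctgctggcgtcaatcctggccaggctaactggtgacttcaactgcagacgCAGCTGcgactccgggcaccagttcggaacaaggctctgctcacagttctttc
Neil3: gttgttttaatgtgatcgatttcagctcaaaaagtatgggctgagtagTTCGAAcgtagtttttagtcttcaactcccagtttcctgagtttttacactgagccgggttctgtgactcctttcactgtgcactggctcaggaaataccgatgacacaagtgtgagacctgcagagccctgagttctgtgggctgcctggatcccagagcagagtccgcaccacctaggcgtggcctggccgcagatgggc
Ung: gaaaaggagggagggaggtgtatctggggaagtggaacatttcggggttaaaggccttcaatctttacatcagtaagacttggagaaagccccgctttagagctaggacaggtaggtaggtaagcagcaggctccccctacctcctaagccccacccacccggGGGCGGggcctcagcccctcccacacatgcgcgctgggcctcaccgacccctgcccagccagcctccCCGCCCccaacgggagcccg
Msh6: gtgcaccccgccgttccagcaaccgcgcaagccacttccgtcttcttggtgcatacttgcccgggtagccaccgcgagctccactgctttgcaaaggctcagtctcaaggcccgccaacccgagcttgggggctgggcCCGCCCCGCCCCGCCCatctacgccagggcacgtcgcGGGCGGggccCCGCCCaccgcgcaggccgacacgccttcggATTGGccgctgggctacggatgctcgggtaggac
Polh: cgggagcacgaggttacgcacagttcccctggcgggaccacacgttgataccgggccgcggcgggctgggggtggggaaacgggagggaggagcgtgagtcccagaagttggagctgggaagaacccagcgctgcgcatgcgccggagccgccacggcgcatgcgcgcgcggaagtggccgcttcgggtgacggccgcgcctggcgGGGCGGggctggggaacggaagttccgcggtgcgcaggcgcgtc

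The motifs were searched on both strands, and 7 of the 9 genes had an entry in the table. They were the E2F words TTTCCCGC, TTTCGCGC, TTTGCCGC and TTTGGCGC, which cell cycle factors of the E2F family bind, the cell cycle homology words TTTGAA and TTCGAA, the E-box words CAGCTG and CACCTG, which E proteins of B cells bind, CCAAT, and the GC box GGGCGG. The Neil1 window held 3 E-box matches, and 27.7% of 32851 promoter windows of this length held at least 1. Neil3 held 1 cell cycle homology match, found in 17.1% of windows. Ung held 2 and Msh6 held 5 GC boxes, some of which overlap (32.7% of windows), and Msh6 also held a CCAAT match (33.8% of windows). Polh held 1 GC box. None of the windows shown held an E2F word, which 1.86% of windows did, while that of Nthl1, which was not called in any comparison, held 1 (TTTCGCGC).

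**Figure D1:**
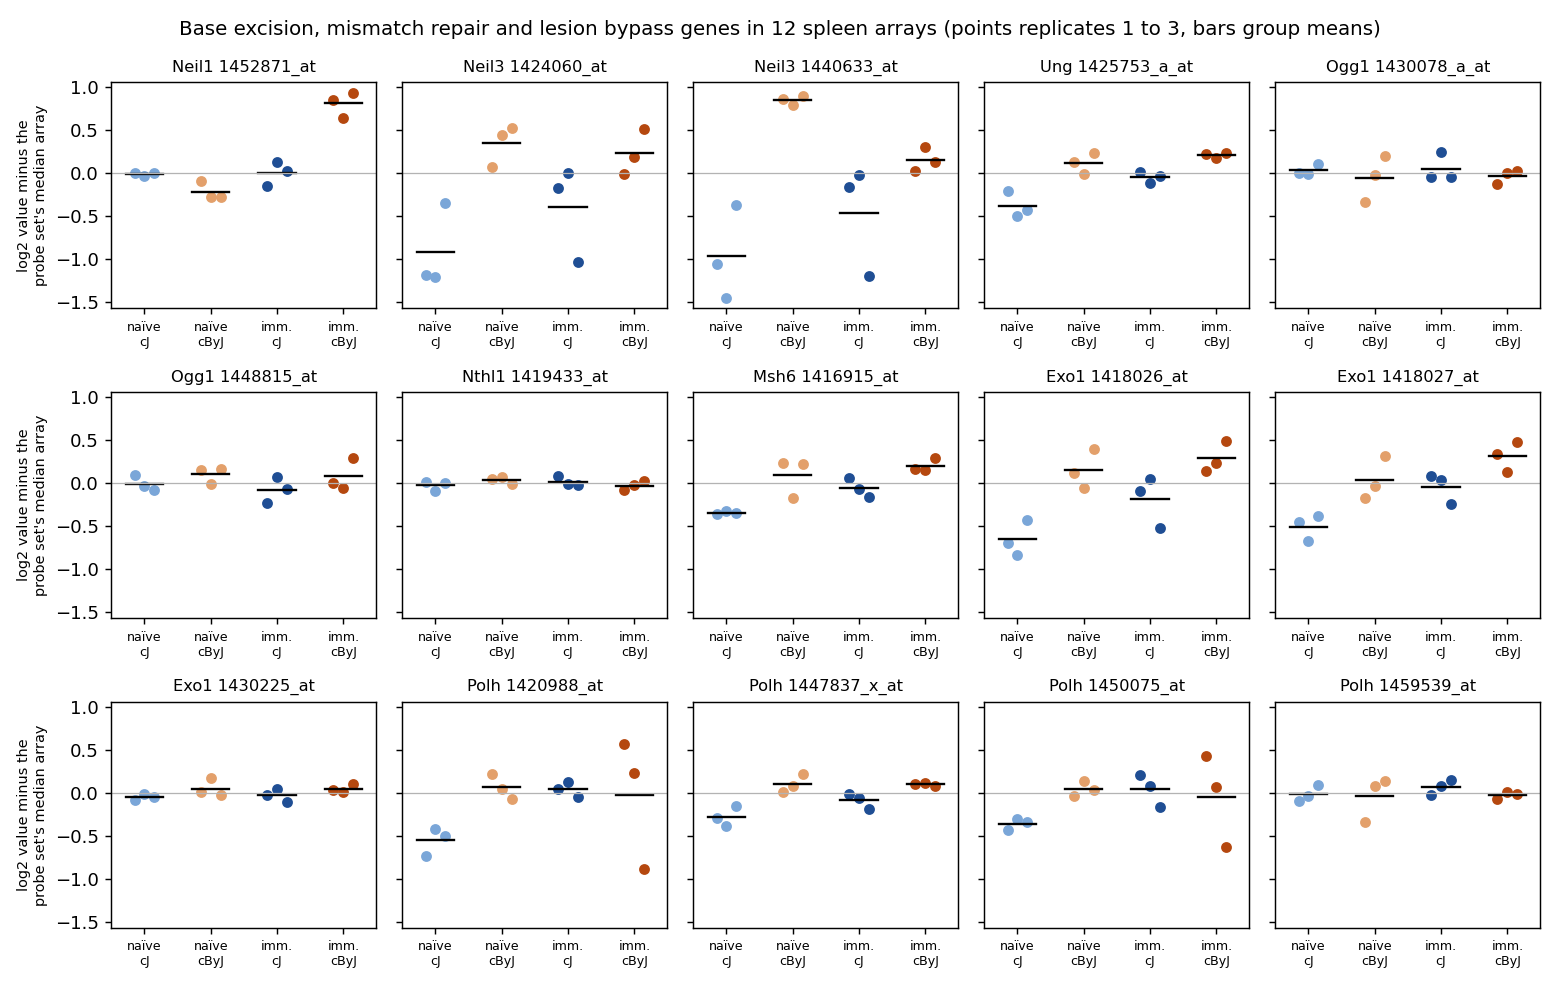
Log2 value minus the probe set's median array (vertical axis) for all 15 probe sets, by group on the horizontal axis. Points are replicates 1 to 3 from left to right and bars are group means; Neil1 is high in the 3 immunized BALB/cByJ arrays (0.65 to 0.94), and both Neil3 probe sets, Ung, Msh6 and the first pair of Exo1 probe sets are low in naïve BALB/cJ.

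In naïve spleens, 7 of the 15 probe sets were higher in BALB/cByJ than in BALB/cJ at an adjusted p under 0.05 in limma, and none was lower. They belonged to 5 genes: Neil3, Ung, Msh6, Exo1 and Polh. Over all probe sets 4.39% were called in this comparison, and 2.68% were called higher. The members' median difference was 0.40, against -0.01 over all probe sets. The count of 7 fell to 2 without naïve BALB/cJ replicate 1, to 0 without replicate 2, to 4 without naïve BALB/cByJ replicate 2 and to 1 without its replicate 3. Over all probe sets the calls in these fits were 232, 161, 1285 and 265, against 1976 with all arrays, and the difference of Neil3 on 1440633_at was 1.76, 1.57, 1.84 and 1.79. When the 4 arrays rich in pigment cell transcripts were left out, 1 naïve BALB/cJ array remained, so only the sizes of the differences are given. They were 1.22 and 0.70 for Neil3 and from 0.26 to 0.58 for the other 5 probe sets.

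Neil3, a glycosylase found mainly in dividing cells, showed the largest naïve difference among the members. On 1440633_at the naïve BALB/cJ arrays read -1.06, -1.45 and -0.37, and the naïve BALB/cByJ arrays 0.87, 0.80 and 0.90. The groups did not overlap, and the difference was 1.81 (SE 0.29, adjusted p = 0.00838 by limma). Naïve BALB/cJ replicate 3 lay closest to the other colony.

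The second Neil3 probe set, 1424060_at, read -1.18, -1.21 and -0.35 in naïve BALB/cJ and 0.07, 0.44 and 0.53 in naïve BALB/cByJ. Its difference was 1.26 (SE 0.27, adjusted p = 0.0253). In immunized BALB/cJ, 1440633_at read -0.16, -0.02 and -1.20, so that replicate 3 lay within the naïve range of its colony. In immunized BALB/cByJ it read 0.02, 0.30 and 0.14, below all 3 naïve arrays of that colony. That difference, -0.70 (adjusted p = 0.566), did not pass the test over all probe sets, and on 1424060_at it was -0.12 (adjusted p = 0.928).

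Ung, the uracil-DNA glycosylase that acts on deaminated cytosines in antibody genes, was higher in naïve BALB/cByJ by 0.50 (SE 0.09, adjusted p = 0.0133). Its probe set 1425753_a_at read -0.21, -0.49 and -0.42 in naïve BALB/cJ and 0.14, -0.01 and 0.24 in naïve BALB/cByJ. Immunized BALB/cJ read 0.01, -0.11 and -0.03, and immunized BALB/cByJ 0.23, 0.18 and 0.24. All 3 immunized BALB/cByJ arrays were above those of immunized BALB/cJ, and the difference of 0.26 did not pass the test (adjusted p = 0.54).

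Ogg1, which removes oxidised guanine, and Nthl1, which removes oxidised pyrimidines, were not called in any comparison. Ogg1 ranged from -0.33 to 0.25 on 1430078_a_at and from -0.23 to 0.29 on 1448815_at. Nthl1 ranged from -0.09 to 0.08 on 1419433_at. In naïve mice the colony differences were -0.09 and 0.11 for Ogg1 (95% confidence intervals -0.36 to 0.18 and -0.12 to 0.35) and 0.06 for Nthl1 (-0.09 to 0.21), and the colonies overlapped in all 3 probe sets.

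Of the mismatch repair members, Msh6, a subunit of the complex that recognises mismatches, was higher in naïve BALB/cByJ by 0.44 (SE 0.11, adjusted p = 0.0375). On 1416915_at the naïve BALB/cJ arrays read -0.35, -0.32 and -0.35 and the naïve BALB/cByJ arrays 0.23, -0.17 and 0.23. The BALB/cJ arrays lay close together, while replicate 2 of BALB/cByJ sat nearest to them. Immunized arrays ranged from -0.16 to 0.06 in BALB/cJ and from 0.15 to 0.29 in BALB/cByJ.

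Exo1, the exonuclease that removes the strand with the mismatch, was higher in naïve BALB/cByJ on 2 of its 3 probe sets. On 1418026_at the naïve BALB/cJ arrays read -0.70, -0.83 and -0.42 and the naïve BALB/cByJ arrays 0.12, -0.05 and 0.40. The difference was 0.81 (SE 0.16, adjusted p = 0.0196), and on 1418027_at it was 0.54 (SE 0.14, adjusted p = 0.0486). The third probe set, 1430225_at, stayed between -0.11 and 0.17 in all arrays and differed by 0.10 (adjusted p = 0.561).

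Polh encodes polymerase eta, which copies past lesions and introduces mutations at A:T pairs in antibody genes. Of its 4 probe sets only 1447837_x_at was called in naïve mice, with a difference of 0.38 (SE 0.08, adjusted p = 0.0267). That probe set read -0.29, -0.38 and -0.15 in naïve BALB/cJ and 0.01, 0.09 and 0.22 in naïve BALB/cByJ. The differences of 1420988_at, 1450075_at and 1459539_at were 0.62, 0.40 and -0.03 (adjusted p = 0.232, 0.302 and 0.92 by limma).

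The Polh probe sets disagreed in immunized BALB/cByJ replicate 3. There 1420988_at and 1450075_at, which carry the same accession, read -0.88 and -0.63, while 1447837_x_at read 0.09. The other immunized BALB/cByJ arrays read 0.57 and 0.23 on 1420988_at.

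**Figure D2:**
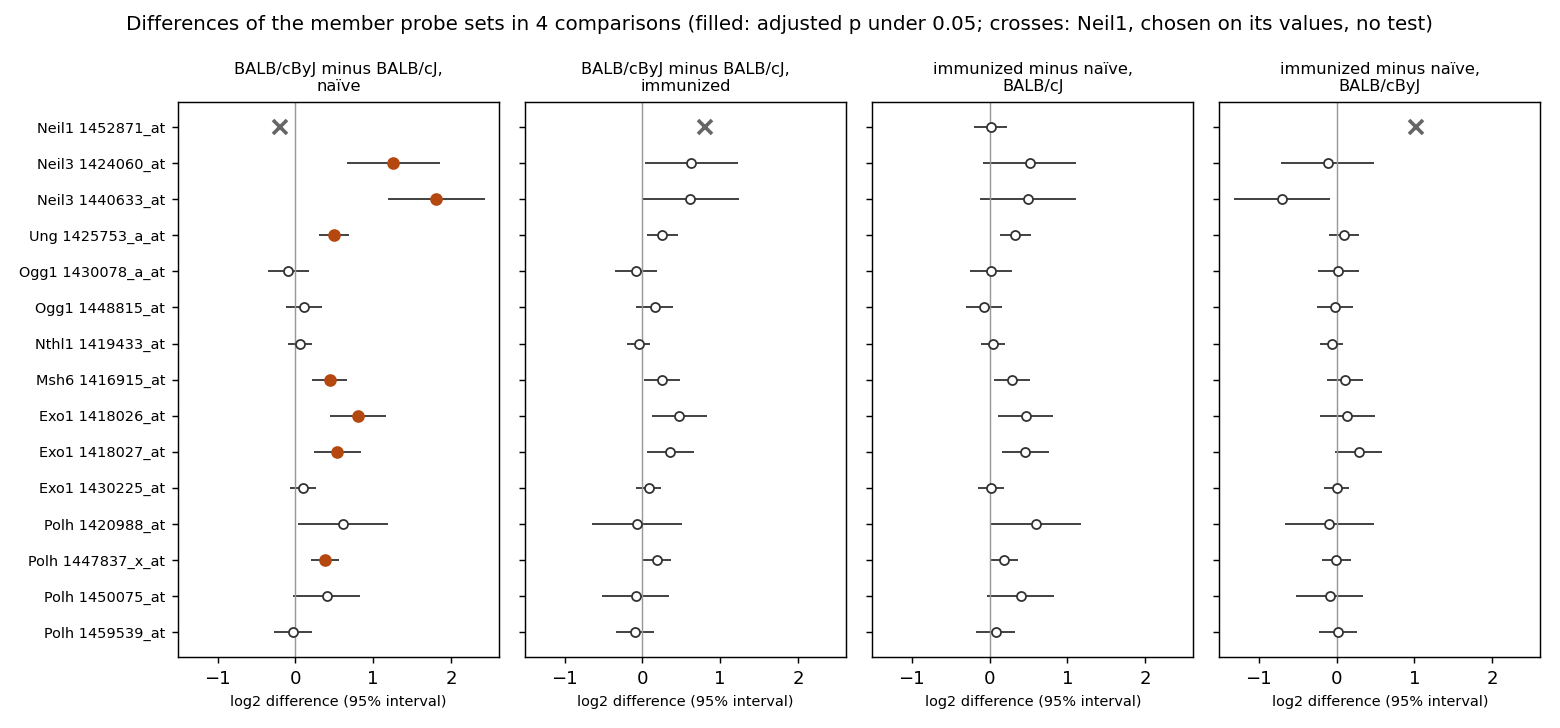
Log2 differences (points) and 95% confidence intervals (lines) of the 15 probe sets in 4 comparisons, from 1 limma fit over 12 arrays. Filled points have an adjusted p under 0.05, and crosses are Neil1 where the values that chose it enter, with no test; 7 points are filled in naïve mice and none elsewhere.

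Neil1 was chosen by its values in the BALB/cByJ arrays and is left out of the next counts, which cover the other 14 probe sets. In the immunized colony comparison limma called 0 of them, against 0.12% of all probe sets. An unadjusted p under 0.05 was reached by 6, all with higher values in BALB/cByJ, against 7.92% of all. In the response of BALB/cByJ limma called 0, against 0.0511% of all, and 1 had an unadjusted p under 0.05 (Neil3 on 1440633_at), against 8.3%. In the response of BALB/cJ limma called 0, against 0% of all, and 6 had an unadjusted p under 0.05, all with higher values after immunization, against 9.19%. The difference of the responses gave 0 calls, against 0% of all, and 1 member had an unadjusted p under 0.05 by limma, against 7.59%. That was Neil3 on 1440633_at at -1.20 (adjusted p = 0.562).

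The 6 of the immunized colony comparison were Neil3 on 1424060_at at 0.63 (adjusted p = 0.615), Ung at 0.26 (0.54), Msh6 at 0.26 (0.592), Exo1 on 1418026_at and 1418027_at at 0.47 and 0.36 (0.53 and 0.586) and Polh on 1447837_x_at at 0.19 (0.621). None passed the adjusted test, and each had the sign of the naïve colony difference. Whether the colony difference changed with immunization is the difference of the responses above.

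The 6 of the BALB/cJ response were Ung at 0.33 (adjusted p = 0.353), Msh6 at 0.29 (0.446), Exo1 at 0.47 and 0.46 (0.434 and 0.378) and Polh at 0.60 on 1420988_at and 0.19 on 1447837_x_at (both 0.532). In BALB/cByJ the differences of the same probe sets were 0.09, 0.11, 0.13, 0.28, -0.09 and -0.00, with adjusted p from 0.618 to 0.997 by limma. These comparisons share their naïve arrays with the naïve colony comparison.

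Genes of DNA replication moved with the naïve colony difference. Of 53 probe sets for 23 replication genes, 37 were higher in naïve BALB/cByJ and none lower, with a median difference of 0.78. The median of the list was between -0.66 and -0.36 in the naïve BALB/cJ arrays and between 0.05 and 0.42 in the naïve BALB/cByJ arrays. In immunized BALB/cJ it was -0.03, 0.02 and -0.42, and replicate 3 was low as it was for Neil3. Of 33 mitosis probe sets 27 were higher, and of 23 erythroid probe sets, for 16 of 18 genes, 16 were higher. In the naïve colony comparison 4.39% of all probe sets were called, and 2.68% were called higher. At an unadjusted p under 0.05 by limma there were 50 replication, 29 mitosis and 21 erythroid probe sets, against 18.7% of all. The erythroid median ranged from -1.50 to -0.23 in naïve BALB/cJ, from 0.29 to 0.72 in naïve BALB/cByJ, from -1.13 to 0.17 in immunized BALB/cJ and from -0.13 to 0.51 in immunized BALB/cByJ. Their part in the differences of Neil3, Exo1, Ung, Msh6 and Polh was not tested.

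**Figure D3:**
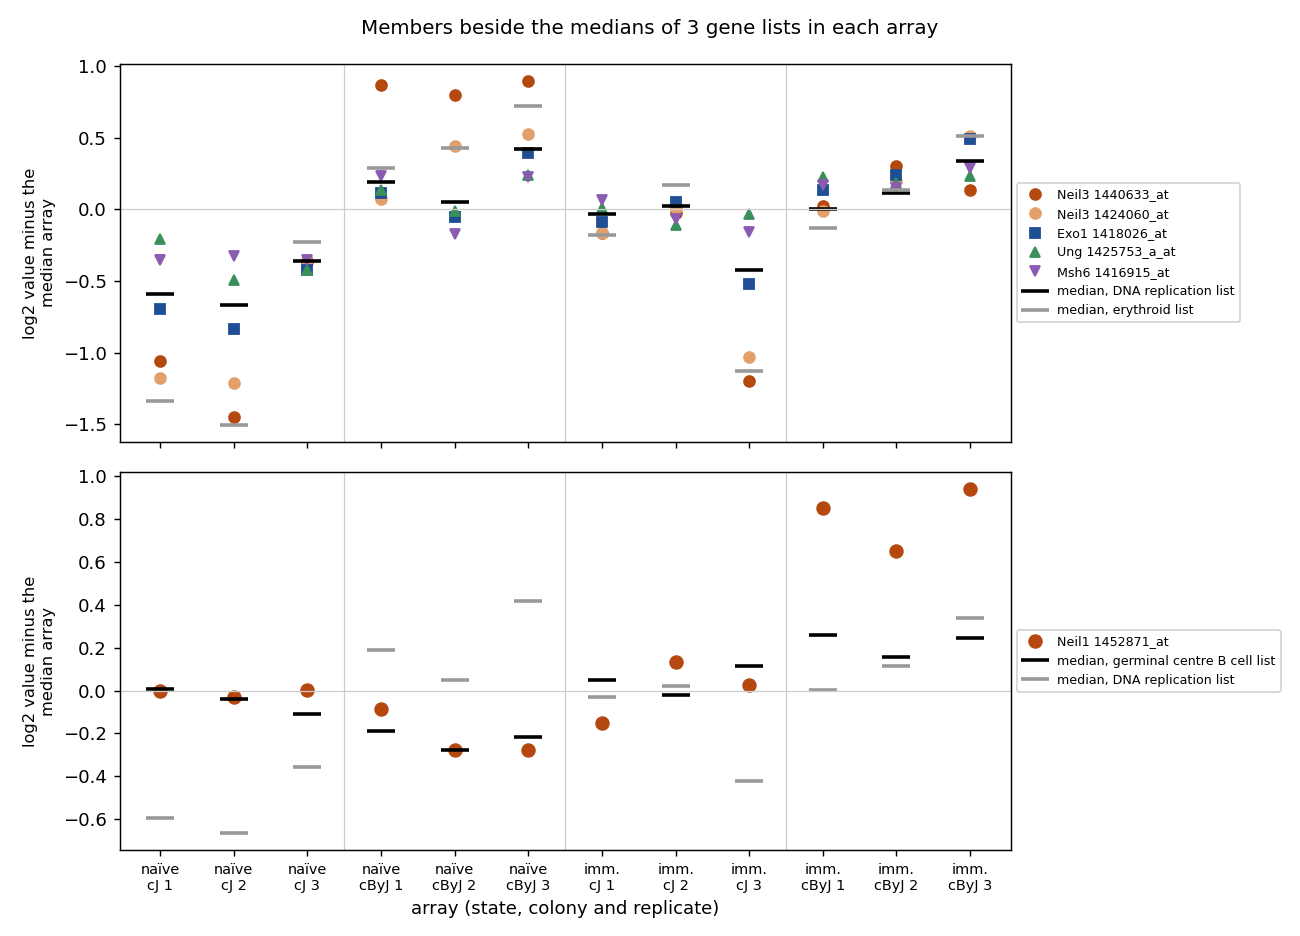
Log2 value minus the median array (vertical axis) in each of the 12 arrays. The upper panel sets Neil3, Exo1, Ung and Msh6 beside the medians of the DNA replication and erythroid lists, and the lower panel sets Neil1 beside the medians of the germinal centre B cell and DNA replication lists; the lowest values of the upper panel are those of the first pair of naïve BALB/cJ arrays and of the last immunized BALB/cJ array.

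In the rest of base excision repair, 3 of 26 probe sets for the steps after the glycosylase, covering 12 of 13 genes listed, were higher in naïve BALB/cByJ and none lower, against 4.39% of all probe sets called. An unadjusted p under 0.05 was reached by 9 of the 26, against 18.7% of all. Of the 3 called, 2 were of Fen1, the flap endonuclease, at 1.08 (adjusted p = 0.0109) and 0.63 (adjusted p = 0.0351). The other was of Lig1, the ligase of replication and repair, at 0.97 (adjusted p = 0.0206). Apex1, the abasic site endonuclease, was at 0.19 on 1437715_x_at (adjusted p = 0.173), and Polb, the polymerase of short-patch repair, at -0.33 on 1439840_at (adjusted p = 0.0592). Among the 9, the probe sets of Fen1, Lig1 and Apex1 were higher in BALB/cByJ and those of Polb were lower. The median difference of the 26 probe sets was 0.02.

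Of 8 probe sets for 4 of 5 other glycosylase genes, 1 was higher, against 4.39% of all called. By limma 2 had an unadjusted p under 0.05, against 18.7% of all. The 1 called was of Mpg, which removes alkylated bases, at 0.45 (adjusted p = 0.0486). Its other probe sets were at 0.23 and 0.04 and were not called. Mutyh, Smug1 and Mbd4, which act on adenine opposite oxidised guanine, on uracil and on deaminated methylcytosine, were at -0.04, -0.14 and 0.20 on their most different probe sets, and the median of the list was 0.03. None of 9 other mismatch repair probe sets, for 4 of 6 genes, was called by limma, 1 had an unadjusted p under 0.05, and their median was 0.14.

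Of 14 probe sets for 8 other translesion genes, 3 were higher: Rad18, the ligase that marks PCNA at stalled forks, at 0.56 (adjusted p = 0.00677) and 0.61 (adjusted p = 0.0295), and Rev1, a scaffold of translesion polymerases, at 0.31 (adjusted p = 0.0341). Primpol and Polk were at 0.22 and -0.25 (adjusted p = 0.159 and 0.128). Of 21 probe sets for 10 of 12 genes that join breaks in class switching, none was higher and 1 was lower. Over all probe sets 4.39% were called, with 2.68% higher and 1.71% lower. At an unadjusted p under 0.05 by limma there were 7 of the 14 translesion and 8 of the 21 break joining probe sets, against 18.7% of all. The 1 called lower was of Trp53bp1, which protects broken ends, at -0.41 (adjusted p = 0.0202). Rif1, Mdc1 and Xrcc6 were at 0.38, 0.33 and 0.30 (adjusted p = 0.0651, 0.0714 and 0.0766). No probe set of these 5 repair lists was called by limma in the other 4 comparisons, where 0 to 4 probe sets of a list had an unadjusted p under 0.05.

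Germinal centre B cell genes moved with Neil1. Of 16 probe sets for 10 of 12 genes, 5 were higher after immunization in BALB/cByJ and none was lower, against 0.0511% of all probe sets called. An unadjusted p under 0.05 by limma was reached by 13 of the 16, against 8.3% of all. Rgs13, which dampens chemokine signalling, rose by 3.07 (SE 0.32, adjusted p = 0.00266), S1pr2, a receptor that keeps B cells in the follicle centre, by 1.21 (adjusted p = 0.00157), Mybl1 by 1.28 (adjusted p = 0.0116), Mef2b by 1.12 (adjusted p = 0.0129) and Gcsam by 0.76 (adjusted p = 0.0116). In the immunized colony comparison 2 were higher in BALB/cByJ, Mef2b at 0.92 (adjusted p = 0.0227) and S1pr2 at 0.67 (adjusted p = 0.0343), against 0.12% of all called. There 7 of the 16 had an unadjusted p under 0.05, against 7.92% of all. In BALB/cJ limma called 0 after immunization, against 0% of all, and an unadjusted p under 0.05 was reached by 6, against 9.19% of all. There S1pr2 was higher by 0.36 and Mef2b by 0.29 (adjusted p = 0.378 and 0.567). The list's median difference was 0.41 in the BALB/cByJ response and 0.08 in the BALB/cJ response. For the difference of the responses limma called 0 of the 16, against 0% of all. There 12 had an unadjusted p under 0.05, against 7.59% of all. The genes of this list were chosen with earlier results of these arrays known.

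The median of the germinal centre list was 0.26, 0.16 and 0.25 in the immunized BALB/cByJ arrays, where Neil1 was high. It was -0.19, -0.27 and -0.22 in naïve BALB/cByJ, between -0.11 and 0.01 in naïve BALB/cJ and between -0.02 and 0.11 in immunized BALB/cJ. Its part in the values of Neil1 was not tested. The replication list did not separate the immunized BALB/cByJ arrays (0.00, 0.11 and 0.34) from the naïve arrays of that colony (0.19, 0.05 and 0.42).

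The 8 genes whose values were most like those of Neil1 over the 12 arrays, among probe sets that name 1 gene, were found by Pearson's r. They were Cep55 (r = 0.96), Ntn5 (0.94), Cilp (0.94), Selenoh (0.94), Hmces (0.93), Mef2b (0.93), Rassf6 (0.93) and S1pr2 (0.92). Spearman's rho ran from 0.56 for Cilp to 0.89 for Rassf6. The 12 points fall into 4 groups, with the immunized BALB/cByJ arrays apart from the rest. After group means were removed, r ran from 0.24 for S1pr2 to 0.69 for Rassf6.

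Cep55 acts in the last step of cell division, and Cilp is a protein of cartilage matrix. Hmces shields abasic sites in single-stranded DNA, and Mef2b is a transcription factor of germinal centre B cells. Hmces read 0.66, 0.34 and 0.78 in the immunized BALB/cByJ arrays and between -0.22 and 0.17 in all others. Cep55 read 0.75, 0.59 and 0.92, and between -0.37 and 0.16 in the others. Both were therefore highest in the same 3 arrays as Neil1. Fam72a, which binds UNG, was singled out after its values were seen (r = 0.90, rho 0.94), with 0.43, 0.26 and 0.40 in the immunized BALB/cByJ arrays and at most 0.23 elsewhere.

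**Figure D4:**
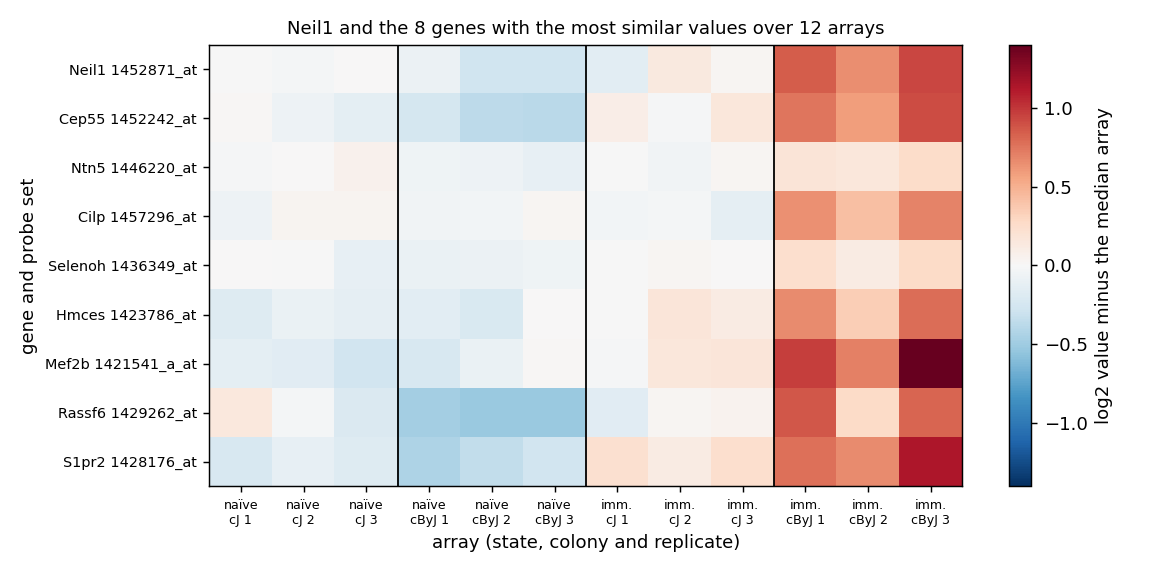
Log2 value minus the median array (colour) of Neil1 and the 8 genes with the highest Pearson's r to it (rows) in 12 arrays (columns). All 9 rows are highest in the 3 immunized BALB/cByJ arrays; these genes were selected on these values.

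The genes beside Neil1 in the genome did not share its values. The nearest genes with a probe set of their own, 3 on each side in the RefSeq order of GRCm38.p6, had 11 probe sets. In the BALB/cByJ response they ranged from -0.23 to 0.22, and 0 of 11 were called by limma, 1 having an unadjusted p under 0.05. That was 1700017B05Rik at 0.22 on 1429758_at (adjusted p = 0.519).

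Of the other cell markers, 2 of 15 B cell and 2 of 15 plasma cell probe sets were lower in naïve BALB/cByJ. Over all probe sets 4.39% were called in this comparison, and 1.71% were called lower. Of 20 heat shock probe sets only 1 was called, 1431182_at of Hspa8. It was lower in naïve BALB/cByJ (-0.63) and rose with immunization in that colony (1.38), where 0.0511% of all were called. Of the T cell, neutrophil, adipose, pancreas acinar and pigment cell lists limma called none in any comparison. At an unadjusted p under 0.05 there were 18 of 20 heat shock probe sets in the BALB/cJ response (list median 0.57), 9 of 15 plasma cell probe sets in the BALB/cByJ response (0.28), and 8 and 10 of 10 neutrophil probe sets in the BALB/cJ and BALB/cByJ responses (0.86 and 1.32). In naïve mice there were 8 of 9 pigment cell (-2.47) and 8 of 9 pancreas acinar probe sets (1.26), against 18.7% of all. There were also 10 of 15 B cell (-0.25), 7 of 15 plasma cell (-0.26) and 6 of 10 neutrophil probe sets (-0.58). In the T cell list there were at most 5 of 16 in a comparison, and in the adipose list 0 of 6. The part of these lists in the members' values was not tested.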

How the data were processed

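Total RNA of 12 spleens was hybridized to Affymetrix whole-genome mouse arrays, 3 per group. The authors deposited log2 values made by RMA in GeneSpring with the median of each probe set over the 12 arrays subtracted. For RMA, a version is stated nowhere in the sources used here. Precision is limited by the number of arrays, and no filter on dim probe sets could be applied.

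All 12 columns were used. Of 45101 probe sets, 64 are controls and were dropped. The other 45037 entered the tests, of which 34945 carry 1 gene symbol, 932 several and 9160 none. A linear model with 4 group means was fitted by limma 3.58.1 (lmFit and eBayes, R 4.3.3), with Benjamini-Hochberg adjustment over all probe sets and a threshold of 0.05. The fit was tested on simulated data. The members and the 17 gene lists were chosen with earlier results of these data known.

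Named genes were all probe sets of the members, up to 4 genes of each list holding a call with the smallest p, and the 8 genes with the highest Pearson's r with Neil1; other list genes are named where a count needed them. One gene that the rule names has no probe set here. Replicates were labelled biological. Alternatives were quantile normalization, subtraction of array medians, trended and robust variance, array weights and compared groups only. Others were blocks for replicate number and sample-number run, leaving out arrays, the level of genes and the study's kind of analysis of variance, rerun here. Promoters came from RefSeq (GRCm38.p6). Figures were drawn with matplotlib 3.10.9 in Python 3.11.15 with pandas 2.3.3.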

Additional observations from a re-analysis of the deposited data

Results flagged for a closer look

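Nthl1 (1419433_at) was picked out because its values moved in opposite directions in the colonies: after immunization all 3 BALB/cByJ arrays lay below the naïve mean of that colony and all 3 BALB/cJ arrays above theirs. The difference between the responses was -0.11 (SE 0.10, 95% confidence interval -0.32 to 0.10, adjusted p = 0.838 by limma), which did not pass the test.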

How the results depend on the processing

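The count of 7 member probe sets called in the naïve colony comparison, among 1976 over all probe sets, was 4 with the compared groups alone, among 1262. It was 0 by the study's kind of analysis of variance, rerun here on all 45037 probe sets, among 67 called in that rerun. At the level of genes 4 members were called, against 5 genes with a called probe set, among 1371 genes called over all. Without the 4 arrays rich in pigment cell transcripts only the sizes of the differences are given, in the Results. It was 5 to 7 under quantile normalization, array medians, trended and robust variance, array weights, the run block and the removal of the 4 arrays with high pancreas or heat shock genes, and 0 to 8 when single arrays were left out. Neil1 makes up the counts of 1 in the immunized colony comparison and in the BALB/cByJ response, which its selection fixed. The first became 0 with a trended and robust variance, with the compared groups alone and when the pigment-rich arrays were left out. The second became 0 with a trended and robust variance and with the compared groups alone. Both counts stayed at 1 when single arrays were left out, which is no test for a gene chosen on these values. Array weights gave 2 calls (Exo1 and Ung) for BALB/cJ, among 651 over all probe sets. The run block gave 1 call for the difference of responses, among 6. It was Neil1, and the values that chose Neil1 enter that difference too. The causes were not tested.

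Same-numbered arrays correlated between -0.29 and 0.37 after group means were removed, and 9 of 18 correlations were over 0.1. As not every one was, the numbers were not taken to pair the samples, although in 20 of 36 cases an array correlated best with its own number, a hint from the data and not from the design. With a replicate block 6 members were called in naïve mice, and no other count of members changed. Each called member probe set was paired with each setting. Of these 198 pairs, 140 kept direction and call, 58 kept direction only and 0 reversed. The pairs include those of Neil1 in the comparisons that its own values chose. Several settings change only the variance or arrays outside the comparison and cannot move the difference, so the absence of reversals was partly fixed in advance. Among 1371 such pairs of members without a call, 90 changed sign. No arrays were identical in all values (0 pairs). The signal over background is unknown, so dim probe sets cannot be told from bright ones.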
